A study of Mus musculus with 18 samples.

Results

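The genes described here are Hmgcs1, Idi1, Fdft1, Sqle, Cyp51, Insig1 and Srebf2, 7 of the 55414 gene identifiers in the deposited count tables, followed in purified mouse brain microglia. They were chosen by name as genes of cholesterol synthesis and of its control, with earlier results of these data known. None of the 7 takes up cholesterol itself, so uptake genes are described below from a list of their own. The libraries came from KO and WT mice for Chd8, which encodes a chromatin remodeler, in both sexes: 5 male KO, 5 male WT, 4 female KO and 4 female WT libraries, 18 in all. The labels give brain as the tissue, microglia as the cell type and poly-A RNA as the molecule; they give no strain, age, allele, Cre line or sorting scheme. All 18 sample titles begin with the code HX, which the labels do not explain. Each library has its own replicate number, and nothing states which came from separate animals, so p-values measure the spread between these libraries.

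Cells make cholesterol from acetyl-CoA. The mevalonate arm builds isoprenoid units: Hmgcs1 makes HMG-CoA, and Idi1 interconverts the pair of isopentenyl isomers. Fdft1, squalene synthase, is the first enzyme committed to sterols, Sqle adds oxygen to squalene, and Cyp51 removes a methyl group from lanosterol. Srebf2 encodes SREBP-2, the transcription factor that turns these genes on when sterol in the endoplasmic reticulum is low, and Insig1 encodes the protein that holds the SREBP escort protein Scap in the endoplasmic reticulum when sterol is high. In the adult brain, where lipoproteins of the blood do not enter, cholesterol is made locally and carried between cells largely on apolipoprotein E.

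SREBP-2 binds sterol regulatory elements and often acts with the CCAAT-binding factor NF-Y, so both motifs were searched for in the promoters of the members (RefSeq, GRCm38.p6, 250 bases before to 50 after the gene start, both strands). An entry was found for 5 of the 7. The element TCACNCCAC was present in 1 of these 5, Hmgcs1, which was also its only match among the 59 promoters of the wider pathway lists (1.69%), beside 1.24% of all 32851 promoters. CCAAT was present in all 5 and in 34 of the 59 pathway promoters (57.6%), beside 37.4% of all promoters. These 59 promoters belong to 46 pathway genes, some with several entries, and the other pathway genes had none. By gene, CCAAT was present in 33 of the 46, beside 41.1% of all genes with an entry. One CCAAT window per gene and the Hmgcs1 element are shown, with the motif in capitals (ATTGG is CCAAT read on the other strand); the positions are chr13:119690203-119690232 and chr13:119690293-119690322 for Hmgcs1, chr13:8885579-8885608 for Idi1, chr5:4104710-4104739 for Cyp51, chr5:28071183-28071212 for Insig1 and chr15:82147121-82147150 for Srebf2, on the plus strand except Cyp51, which is on the minus strand.
Hmgcs1, sterol regulatory element: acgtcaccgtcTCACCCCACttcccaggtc
Hmgcs1, CCAAT box: gtccccgcctctcATTGGctgaaagcggat
Idi1, CCAAT box: ggtccaaggtgccATTGGctggcgaccgac
Cyp51, CCAAT box: ccgctgtccgccaCCAATctggtcctgaga
Insig1, CCAAT box: ccgccctcctcccATTGGctccggcggcct
Srebf2, CCAAT box: gcttcgcgcgccgATTGGctaatgcaagcc
The Hmgcs1 element lay 128 bases before the RefSeq start of the gene (chr13, position 119690351), which differs from the GENCODE start given below. A match describes the letters only; binding was not measured here.

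Srebf2 also carries a microRNA, miR-33, in an intron on the same strand (chr15:82198127-82198147, GRCm38.p6). miR-33 is known to act on mRNAs of cholesterol efflux such as Abca1. Its mature 5p strand is shown with the seed, bases 2 to 8, in capitals.
mmu-miR-33-5p: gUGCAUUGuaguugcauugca
The hairpin's own gene, Mir33, had 0 UMIs in all 18 libraries; a poly-A library measures the spliced host mRNA and not the mature microRNA, so no level of miR-33 can be read here.

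Libraries were made by a bulk MARS-seq protocol, which tags the 3' end of poly-A RNA with a unique molecular identifier (UMI), so that each counted UMI stands for 1 captured molecule. Totals ran from 435838 to 9149144 UMIs per library: 2022957 to 9149144 in male KO, 2050624 to 3441103 in male WT, 435838 to 3433078 in female KO and 458075 to 1841384 in female WT. All 10 microglia markers were detected in each group, and their summed level was 27956 to 37879 CPM in every library (CPM, UMI counts scaled to a common library size of 1000000). The sum ran from 28720 to 31876 CPM in male KO and from 31924 to 35419 CPM in male WT. It ran from 32123 to 37879 CPM in female KO and from 27956 to 30928 CPM in female WT. At an adjusted p under 0.05 by edgeR, 2 of the 10 were lower in KO males and 1 in KO females, and 0 were higher. Of all genes tested, 2.87% were lower in KO males and 1.83% in KO females. Chd8 itself stood at 104 ± 8.52 CPM in male KO and 152 ± 12.7 CPM in male WT (SD, n = 5 each), and at 123 ± 10.8 CPM in female KO and 166 ± 24.3 CPM in female WT (SD, n = 4 each); a 3' tag may lie outside the deleted part, so this level does not check the genotype. Reads per UMI fell into 3 ranges, and the highest, 5.52 to 7.26, held 1 female KO and 3 female WT libraries and no male one.

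The 7 genes spanned a wide range of abundance, and most were close to the detection limit. Summed over the 18 libraries, Srebf2 had 2364 UMIs and Hmgcs1 1146, against 108 for Cyp51, 51 for Insig1, 39 for Sqle, 22 for Fdft1 and 8 for Idi1. Only Srebf2 and Hmgcs1 passed the filter for the test across all genes (about 10 counts at the median library, 3.64 CPM, in at least 4 libraries); the other 5 are described by their counts. UMIs at the 3' end are not scaled by transcript length, so this order compares captured molecules. Among the 20 genes listed for the enzymatic steps, 14 passed the filter, and Lss and Hsd17b7 also missed it.

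**Figure D1:**
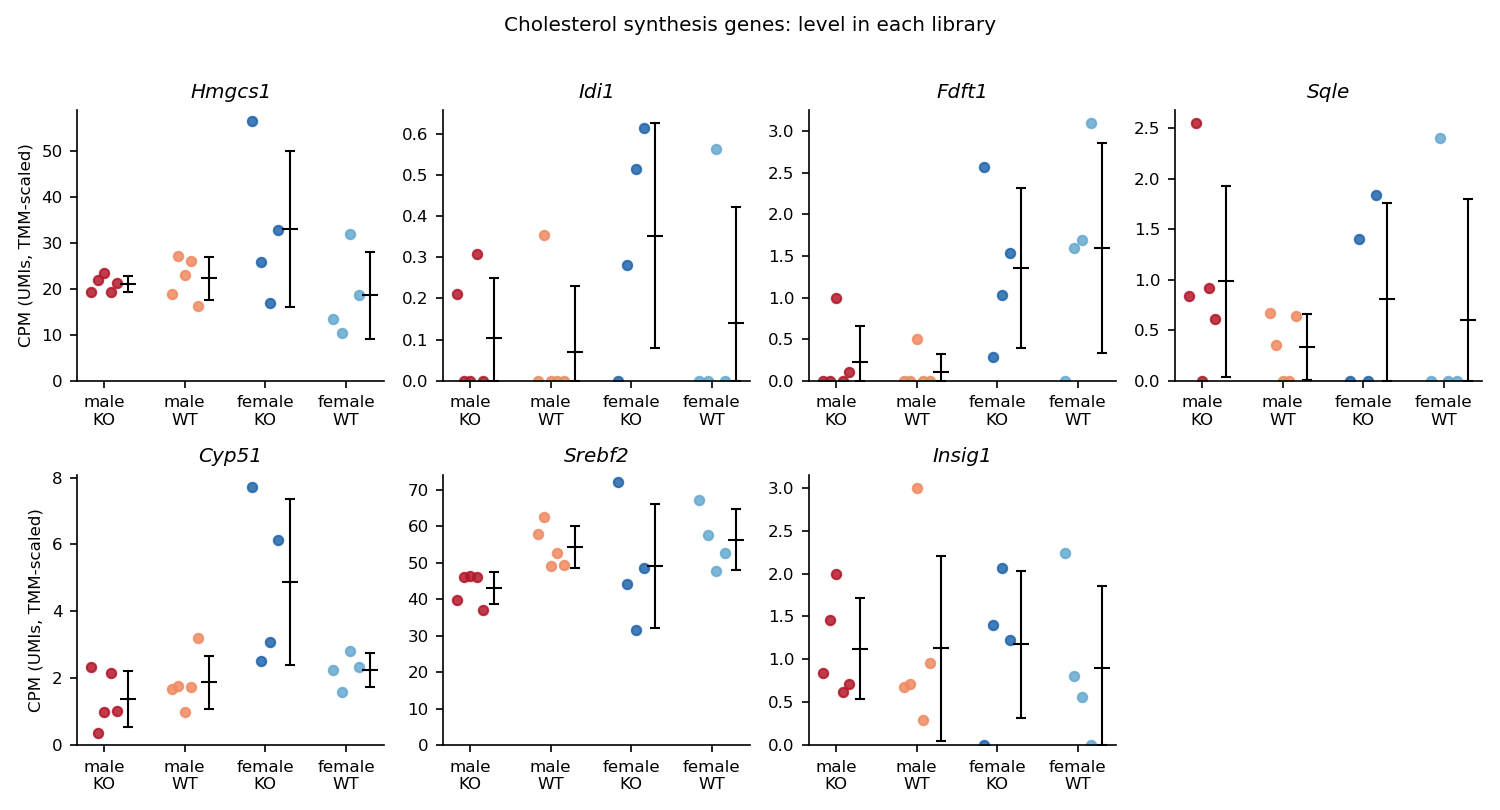
CPM of each of the 7 genes (vertical axis, linear, starting at 0) in every library; groups run male KO, male WT, female KO, female WT, points are libraries, and bars are group means ± SD. Srebf2 lies between 31.4 and 72.0 CPM and Hmgcs1 between 10.4 and 56.6 CPM, while Idi1 stays at or under 0.614 CPM in every library.

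Srebf2 (ENSMUSG00000022463, chr15:82147181-82205379, plus strand, mm10) was the most abundant of the 7. In male KO libraries it had 39.9, 45.9, 46.3, 46.0 and 37.0 CPM, and in male WT libraries 57.8, 62.4, 49.1, 52.7 and 49.4 CPM. Every male KO library was thus below every male WT library. The share of all genes whose groups separate in this way was not counted, here or for the genes below. Of all 10948 genes tested, 6.24% were called between KO and WT in males, and 18.1% had an unadjusted p under 0.05 by edgeR. The log2 fold change of KO over WT in males was -0.35 ± 0.14 (SE; 95% interval -0.64 to -0.05), with an unadjusted p of 0.0232 and an adjusted p of 0.183 over all genes tested, by edgeR's quasi-likelihood test, so it did not pass the threshold of 0.05. Fitted on the 10 male libraries alone, the same gene passed, with an adjusted p of 0.0416 by edgeR. That fit called 1145 of the 10165 genes it tested, and it was the only 1 of 27 alternative fits in which Srebf2 passed in males. Srebf2, in the libraries with the fewest reads per UMI (1.79 to 1.89), averaged 42.2 CPM in 4 male KO and 56.4 CPM in 3 male WT libraries.

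In females the values overlapped. Srebf2 had 72.0, 44.0, 31.4 and 48.5 CPM in female KO libraries and 67.2, 57.6, 47.8 and 52.6 CPM in female WT libraries. The highest value of each group came from its shallowest library, which held 28 Srebf2 UMIs in female KO and 30 in female WT. The log2 fold change of KO over WT in females was -0.27 ± 0.18 (adjusted p = 0.514, edgeR), and its difference from the male one, female minus male, was 0.07 ± 0.23 (adjusted p = 0.984, edgeR). Averaged over the sexes, where 9.5% of all genes were called, Srebf2 stood at -0.31 ± 0.12 (adjusted p = 0.0967, edgeR). That average passed the threshold without the 2 shallowest libraries, of 435838 and 458075 UMIs (adjusted p = 0.0391) and without female KO replicate 33 alone (-0.37, adjusted p = 0.0185). It passed in only these 2 of 26 alternative fits.

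Hmgcs1 (ENSMUSG00000093930, chr13:119690379-119708260, plus strand) is the only enzyme of the 7 with enough counts for the test. It had 19.4, 21.9, 23.4, 19.3 and 21.3 CPM in male KO libraries, against 18.8, 27.3, 23.03, 26.1 and 16.3 CPM in male WT libraries. The male KO values lay inside the spread of the male WT values, and the log2 fold change was -0.09 ± 0.24 (95% interval -0.58 to 0.41; adjusted p = 0.914, edgeR). In female KO libraries it had 56.6, 25.8, 17.0 and 32.9 CPM, and in female WT libraries 13.4, 10.4, 32.03 and 18.6 CPM. The female groups overlapped and spread widely: the mean was 33.1 ± 17.0 CPM in female KO and 18.6 ± 9.56 CPM in female WT (SD, n = 4 each). The highest female KO value rested on 22 UMIs. The log2 fold change in females was 0.54 ± 0.31 (95% interval -0.11 to 1.18; adjusted p = 0.423, edgeR), and it ran from 0.31 to 1.02 when single libraries were left out. The difference of the KO effect between the sexes, female minus male, was 0.63 ± 0.39 (adjusted p = 0.717, edgeR); 0.237% of all genes were called in that test.

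Neither of these 2 genes was called in either sex, against 6.24% of all genes tested in males and 2.68% in females. At an unadjusted p under 0.05, which 18.1% of all genes met in males and 15.7% in females, 1 of the 2, Srebf2, was lower in KO males and 0 differed in KO females; DESeq2 called 0 of the 2 in both sexes.

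Insig1 (ENSMUSG00000045294, chr5:28071363-28078662, plus strand) had 4, 4, 4, 2 and 7 UMIs in male KO libraries and 2, 2, 6, 1 and 3 UMIs in male WT libraries. It was found in every male library, with a pooled level (the UMIs of a group over its summed library totals) of 0.970 CPM in male KO and 0.969 CPM in male WT; the ratio of these levels was 1.00 (95% exact interval 0.485 to 2.13). Female KO libraries had 0, 5, 4 and 4 UMIs and female WT libraries 1, 1, 1 and 0, a ratio of 2.43 with an interval of 0.667 to 13.3. These intervals, and those of the next genes, cover counting error of the pooled UMIs only and not the spread between libraries.

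Sqle (ENSMUSG00000022351, chr15:59315077-59331192, plus strand) had 4, 7, 0, 3 and 6 UMIs in male KO libraries, against 2, 1, 0, 0 and 2 UMIs in male WT libraries. The pooled levels were 0.923 CPM in male KO and 0.346 in male WT, a ratio of 2.67 (0.972 to 9.10). Scaled to CPM, male KO replicates 9 (0 CPM) and 40 (0.609 CPM) lay within the male WT values, which ran from 0 to 0.673 CPM. In females Sqle was patchy: it had 0, 5, 0 and 6 UMIs in female KO libraries and 0, 3, 0 and 0 UMIs in female WT libraries, a ratio of 2.06 (0.543 to 11.5).

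Cyp51 (ENSMUSG00000001467, chr5:4081145-4104746, minus strand) was the best covered of the sparse enzymes. It had 11, 1, 2, 7 and 10 UMIs in male KO libraries and 5, 5, 2, 6 and 10 UMIs in male WT libraries, with pooled levels of 1.43 CPM in male KO and 1.94 CPM in male WT (ratio 0.739, 0.429 to 1.28). In female KO libraries it had 3, 9, 6 and 20 UMIs, against 1, 2, 5 and 3 UMIs in female WT libraries. The pooled female levels were 4.27 CPM in KO and 2.20 in WT, a ratio of 1.94 (0.970 to 4.20). Scaled to CPM, the female KO libraries ran from 2.52 to 7.72 and the female WT libraries from 1.60 to 2.81, so the groups overlapped. The last 166 bases of Cyp51 are shared with Akap9 on the other strand, which had 1123 UMIs, and the strand setting of the counting is not given in the sources used here, so Cyp51 counts are uncertain.

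Idi1 (ENSMUSG00000058258, chr13:8885501-8892451, plus strand) was almost absent, with 2 UMIs in the 5 male KO libraries and 1 in the 5 male WT libraries. The 4 female KO libraries held 4 Idi1 UMIs and the 4 female WT libraries 1. No difference in Idi1 was detectable at this depth; the female ratio of 2.24 had an interval of 0.222 to 110.

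Fdft1 (ENSMUSG00000021273, chr14:63145150-63179578, minus strand) had 18 of its 22 UMIs in the female libraries. It had 0, 0, 2, 0 and 1 UMIs in male KO libraries and 0, 0, 1, 0 and 0 UMIs in male WT libraries. Female KO libraries had 1, 1, 2 and 5 UMIs, and female WT libraries 0, 2, 3 and 4. Between KO and WT the ratio was 2.002 in males (0.161 to 105) and 0.560 in females (0.197 to 1.59). Fdft1 lies on the chromosome of Chd8, 10.9 Mb from it. Its last 774 bases are shared with Ctsb on the other strand, which had 8024 UMIs, so Fdft1 counts are uncertain too.

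None of the KO ratios of the 5 sparse genes in UMIs had an interval clear of 1. Exact two-sided permutation tests over libraries, added after the data were seen (5 genes in 4 comparisons, 20 tests), gave no adjusted p under 0.05. The smallest for a KO comparison was 0.0571 for Cyp51 in females, with an adjusted p of 0.381. On read counts before UMI correction that comparison was larger: the exact test gave 0.0286, the smallest p that 4 against 4 libraries allow, with an adjusted p of 0.318. The unfiltered edgeR fit on reads gave Cyp51 a log2 fold change of 2.32 in KO females (95% interval 0.61 to 4.04; adjusted p = 0.213), against 0.97 on UMIs (adjusted p = 0.602).

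Srebf2 and Hmgcs1 did not pass the test between the sexes. The log2 ratio of males over females in WT was -0.01 ± 0.17 for Srebf2 (adjusted p = 0.970, edgeR) and 0.16 ± 0.29 for Hmgcs1 (adjusted p = 0.762, edgeR). In KO the same ratios were -0.09 ± 0.16 for Srebf2 (adjusted p = 0.790, edgeR) and -0.47 ± 0.26 for Hmgcs1 (adjusted p = 0.280, edgeR). Neither was called, against 17.3% of all genes in WT and 7.1% in KO; 0 of the 2 passed at an unadjusted p under 0.05, which 31.3% of all genes met in WT and 24.2% in KO, and DESeq2 called 0.

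By pooled UMI counts, Fdft1 was lower in males than in females in both genotypes, and Cyp51 in KO. Pooled, Fdft1 had 0.0692 CPM in male WT and 1.80 in female WT, a ratio of 0.0384 with a counting interval of 0.000876 to 0.277. In KO it had 0.139 CPM in males and 1.01 in females, a ratio of 0.137 (0.0239 to 0.549). Per library, the exact permutation test of Fdft1 gave p = 0.0952 in WT and p = 0.0317 in KO, with adjusted p-values over the 20 tests of 0.476 in WT and 0.318 in KO; the values of the sexes overlapped in both genotypes. On read counts the exact p for Fdft1 in KO was 0.349. In an edgeR fit without the filter, Fdft1 was called in WT at -3.91 ± 1.10 (adjusted p = 0.00704), on 1 UMI in males and 9 in females; the same fit on read counts gave -3.59 (adjusted p = 0.167).

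Pooled, Cyp51 had 1.43 CPM in male KO and 4.27 in female KO, a ratio of 0.336 (0.202 to 0.554), and every male KO library lay below every female KO library. The exact permutation test gave 0.0159, the smallest p that 5 against 4 libraries allow, and an adjusted p of 0.318. In WT the pooled levels were 1.94 in males and 2.20 in females, a ratio of 0.879 (0.424 to 1.96). Read counts turned the direction in WT, with mean levels of 1.39 CPM in males and 0.662 CPM in females (exact permutation p = 0.0794).

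Sex moved with reads per UMI, a measure of how often each molecule was sequenced. In the middle range, 2.94 to 3.12 reads per UMI, Fdft1 had a pooled 0.232 CPM in 3 male libraries and 1.42 in 3 female libraries. In that range Cyp51 had 2.09 in males and 4.41 in females. The lowest range held 7 male libraries and 1 female library, with Fdft1 at 0.0728 CPM in males and 0.291 CPM in the female; the part of reads per UMI in the sex differences was not tested beyond these values. Markers of blood cells also moved with sex: summed neutrophil markers ran from 301 to 1113 CPM in male WT and from 2040 to 14679 CPM in female WT, and from 313 to 600 CPM in male KO and from 925 to 5052 CPM in female KO, and their part in these results was not tested.

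The wider pathway was described over 59 genes in 6 lists: 8 genes of the mevalonate arm, 12 of the squalene and sterol arm, 8 of SREBP control, 10 of uptake and lysosomal release, 11 of efflux, esterification and oxysterols, and 10 fatty acid genes that SREBPs also control. Of these, 44 passed the filter. In KO males 3 rose and 1 fell, against 3.37% of all genes called higher and 2.87% lower. In KO females 0 rose and 1 fell, against 0.849% of all genes called higher and 1.83% lower; 2 were higher and 5 lower at an unadjusted p under 0.05, beside 6.49% of all genes higher and 9.19% lower at that threshold, and DESeq2 called 1. The median log2 fold change of the 44 genes was 0.002 in males and -0.004 in females, beside -0.01 in males and 0.01 in females over all genes.

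**Figure D2:**
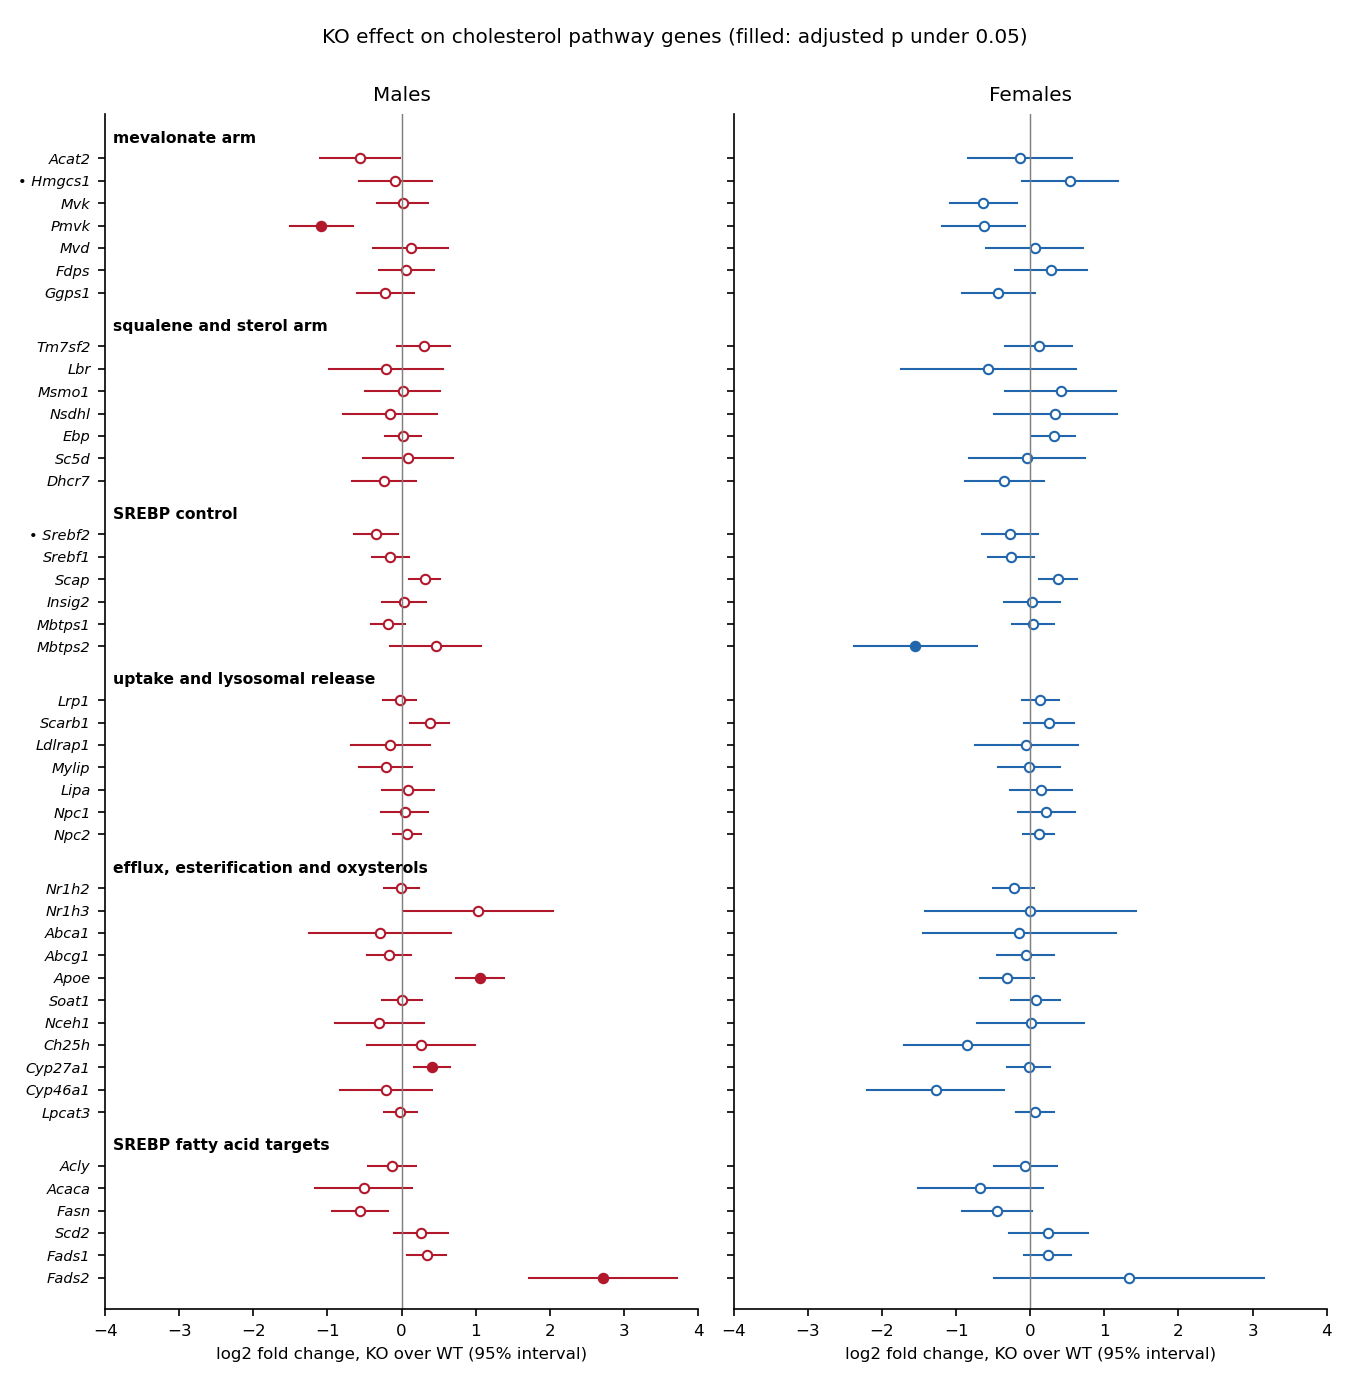
Log2 fold change of KO over WT (horizontal axis) with its 95% interval for the 44 pathway genes tested, grouped by list, in males (left) and females (right); filled points passed an adjusted p of 0.05 and a dot beside the name marks Hmgcs1 and Srebf2. Apoe, Fads2 and Cyp27a1 lie to the right of 0 and Pmvk to the left in males, and Mbtps2 lies to the left in females.

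Of the 14 tested synthesis genes, 1 was called in males and 0 in females, beside 6.24% of all genes in males and 2.68% in females. Pmvk, which phosphorylates mevalonate phosphate, fell in male KO: it had 16.9, 13.5, 15.9, 13.2 and 10.7 CPM in male KO libraries, against 34.6, 24.4, 32.5, 25.8 and 29.7 CPM in male WT libraries. The groups did not overlap, and the log2 fold change was -1.08 ± 0.21 (adjusted p = 0.00185, edgeR). In females Pmvk averaged 17.5 ± 6.95 CPM in KO and 23.6 ± 8.80 CPM in WT (SD, n = 4 each) and was not called. It was lower in KO females at an unadjusted p under 0.05 by edgeR, as were 9.19% of all genes. The KO effect on Pmvk was not called different between the sexes. Averaged over the sexes, Pmvk was called lower in all 26 alternative fits, at -1.05 to -0.72 on the log2 scale. No gene of the squalene and sterol arm was called in either sex by edgeR; at an unadjusted p under 0.05 there were 0 of 7 in males and 1 of 7 in females, Ebp at 0.32, beside 18.1% of all genes in males and 15.7% in females. The median of both synthesis arms was -0.04 in males and 0.007 in females.

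Among genes of SREBP control, Mbtps2, the site-2 protease that releases SREBPs from the membrane, fell in females. It had 0, 5.89, 2.06 and 4.61 CPM in female KO libraries and 13.4, 10.4, 16.9 and 7.74 CPM in female WT libraries, with no overlap (log2 fold change -1.55 ± 0.40, adjusted p = 0.0389, edgeR). The 4 female KO libraries held 40 Mbtps2 UMIs in all, and the call held in 14 of 27 alternative fits. It was lost without female KO replicate 1 or 7, female WT replicate 30, 31 or 34, male KO replicate 36 or 40, or male WT replicate 10 or 37, at adjusted p-values of 0.0504 to 0.149 by edgeR. The Mbtps2 call was also lost with reads per UMI as a covariate (adjusted p = 0.174, edgeR) and with the female groups fitted alone (adjusted p = 0.2705, edgeR). So it was without the 2 shallowest libraries (adjusted p = 0.0517, edgeR) and without male KO replicates 6, 9 and 17 (adjusted p = 0.0608, edgeR). The value of 0 came from female KO replicate 33, the shallowest library, with 435838 UMIs. Markers of blood cells moved with this female comparison: summed neutrophil markers ran from 925 to 5052 CPM in female KO and from 2040 to 14679 CPM in female WT, and monocyte markers from 75.7 to 108 CPM in female KO and from 108 to 397 CPM in female WT; their part in it was not tested. Averaged over the sexes, 3 pathway genes (Scap, Apoe and Fads2) were higher and 2 (Pmvk and Fasn) lower in KO, against 4.37% of all genes called higher and 5.13% lower. The averaged Apoe value, 0.37 (adjusted p = 0.0472, edgeR), was called in 10 of 26 alternative fits and was lost without any 1 of 12 of the libraries. Scap, the sterol-sensing escort of SREBPs, was higher in KO averaged over the sexes by 0.34 on the log2 scale (adjusted p = 0.00890, edgeR); on read counts it stood at 0.28 and was not called (adjusted p = 0.0598, edgeR). Scap stood at 110 ± 12.2 CPM in male KO and 88.6 ± 7.86 CPM in male WT (SD, n = 5 each), and at 109 ± 13.9 CPM in female KO and 83.0 ± 5.20 CPM in female WT (SD, n = 4 each).

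None of the 7 tested genes of uptake and lysosomal release was called in KO in either sex by edgeR; at an unadjusted p under 0.05 there was 1 in males, Scarb1 at 0.38, and 0 in females, beside 18.1% of all genes in males and 15.7% in females. Lrp1, an endocytic receptor that binds apolipoprotein E, was abundant, at 1187 CPM in male KO and 1208 CPM in male WT, and at 1254 CPM in female KO and 1137 CPM in female WT.

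**Figure D3:**
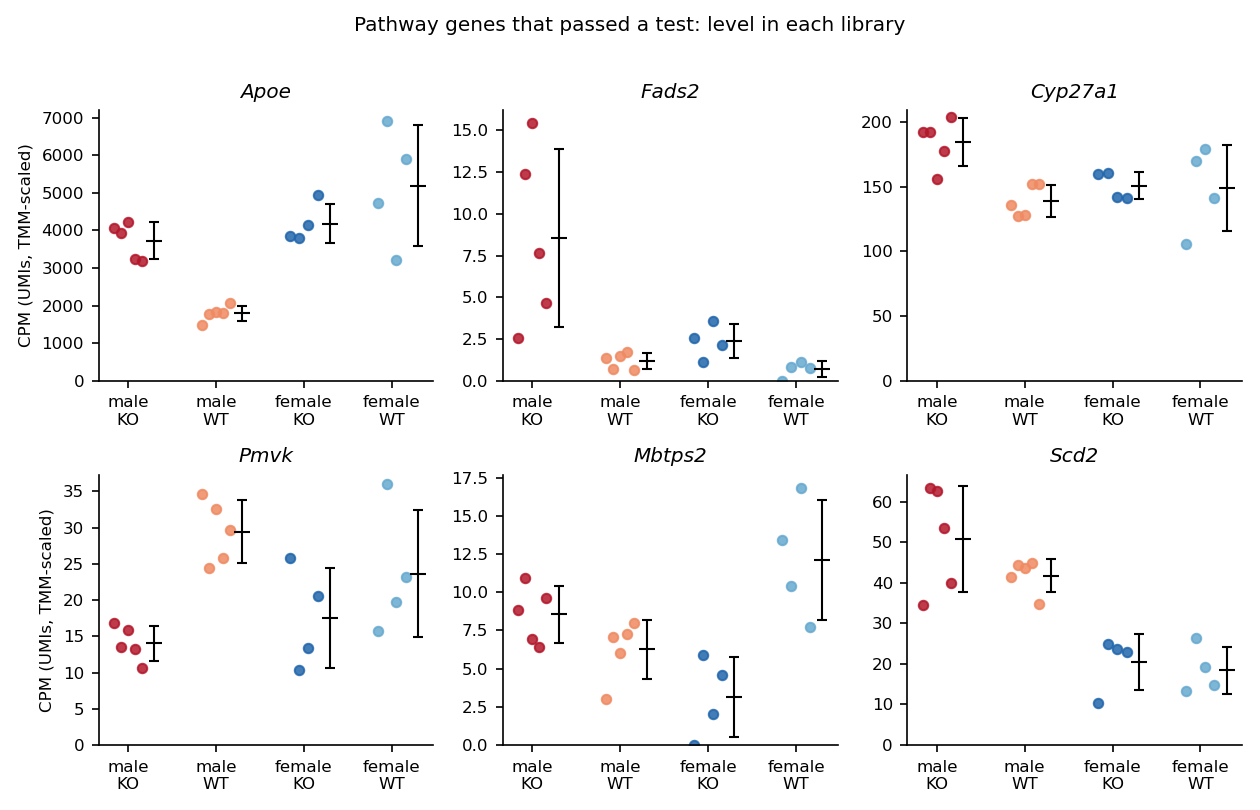
CPM per library of Apoe, Fads2, Cyp27a1, Pmvk, Mbtps2 and Scd2 (vertical axis, linear, starting at 0), with groups in the order male KO, male WT, female KO, female WT; bars are means ± SD. Apoe in male KO lies between 3173 and 4235 CPM, above all male WT libraries, which end at 2055 CPM.

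In the efflux list 2 of 11 genes rose in KO males and 0 in KO females, beside 3.37% of all genes called higher in males and 0.849% in females. Apoe, the main lipid carrier of the brain, had 4065, 3936, 4235, 3227 and 3173 CPM in male KO libraries, against 1490, 1768, 1825, 1804 and 2055 CPM in male WT libraries. The log2 fold change was 1.06 ± 0.16 (adjusted p = 0.000198, edgeR) and stayed past the threshold in all 27 alternative fits. In female KO libraries Apoe had 3842, 3801, 4146 and 4937 CPM, and in female WT libraries 4731, 6925, 3200.0 and 5907 CPM, which overlap. The KO effect differed between the sexes by -1.37 ± 0.24, female minus male (adjusted p = 0.0147, edgeR). Cyp27a1, which makes 27-hydroxycholesterol, rose in males by 0.41 ± 0.12 (adjusted p = 0.0358, edgeR), with 184 ± 18.5 CPM in male KO and 139 ± 12.5 CPM in male WT (SD, n = 5 each). That call was lost without male KO replicate 6, 17, 36 or 40, or male WT replicate 10, 13 or 37, at adjusted p-values of 0.0530 to 0.0971 by edgeR. The Cyp27a1 call was also lost on read counts (0.42, adjusted p = 0.215, edgeR) and without the filter (0.42, adjusted p = 0.0517, edgeR). The Apoe difference between the sexes was lost without female WT replicate 30, where it stood at -1.30 (adjusted p = 0.0560, edgeR).

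Fads2, a fatty acid desaturase, rose in KO males by 2.72 ± 0.48 (adjusted p = 0.00104, edgeR). It had 2.53, 12.4, 15.4, 7.67 and 4.67 CPM in male KO libraries, against 1.35, 0.709, 1.502, 1.74 and 0.638 CPM in male WT libraries, so the groups did not overlap. In female KO it averaged 2.36 ± 1.03 CPM, and in female WT 0.675 ± 0.477 CPM (SD, n = 4 each). The filter asked for about 3.64 CPM in at least 4 libraries. The highest Fads2 value was 1.74 CPM in male WT, 3.61 CPM in female KO and 1.12 CPM in female WT. In every comparison Fads2 thus entered the test largely through male KO, the group where it was highest. It passed the filter in 16 of the 18 fits that left out 1 library. Fasn, fatty acid synthase, was lower in KO averaged over the sexes, at -0.50 on the log2 scale (adjusted p = 0.0308, edgeR). The Fasn call was lost without female KO replicate 7 or 16, female WT replicate 39, male KO replicate 17, 36 or 40, or male WT replicate 14, at adjusted p-values of 0.0517 to 0.0889 by edgeR. It was also lost on read counts (-0.34, adjusted p = 0.326, edgeR) and without the filter (-0.46, adjusted p = 0.104, edgeR).

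Markers of other cell types moved with these male results. Summed astrocyte markers ran from 284 to 590 CPM in male KO and from 143 to 201 CPM in male WT, and oligodendrocyte markers from 302 to 881 CPM in male KO and from 174 to 230 CPM in male WT. Summed neuron markers ran from 69.2 to 331 CPM in male KO and from 14.1 to 38.1 CPM in male WT, and border-associated macrophage markers from 157 to 251 CPM in male KO and from 30.0 to 57.8 CPM in male WT. In males 4 of 5 tested astrocyte, 5 of 5 neuron, 3 of 6 oligodendrocyte and 7 of 8 border-associated macrophage markers rose, and 1 oligodendrocyte marker fell; Pdgfra in male KO, and Gja1 and Mog in male WT, were at 0 in every library. Without male KO replicates 6, 9 and 17, which an earlier look at these data found to hold the most neural transcripts, Apoe was still called, while Fads2 stood at 1.62 (adjusted p = 0.115, edgeR), Pmvk at -1.11 (adjusted p = 0.0536, edgeR) and Cyp27a1 at 0.52 (adjusted p = 0.117, edgeR), above its 0.41 with all libraries. The part of other cell types in these results was not tested further, and in bulk RNA fewer cells of a type and less RNA per cell cannot be told apart.

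Between the sexes, 2 of the 44 pathway genes were higher and 2 lower in WT males, against 6.94% of all genes called higher and 10.3% lower. Apoe was lower in WT males, at -1.54 on the log2 scale, and so was Ch25h, which makes 25-hydroxycholesterol, at -1.57. Markers of macrophages and blood cells were lower in WT males too: all 6 tested neutrophil markers, all 5 tested monocyte markers and 7 of the 8 border-associated macrophage markers were called lower, and 0 were called higher. Summed macrophage markers ran from 30.0 to 57.8 CPM in male WT and from 136 to 299 CPM in female WT, and monocyte markers from 31.1 to 58.5 CPM in male WT and from 108 to 397 CPM in female WT; their part in these results was not tested. Scd2, a stearoyl-CoA desaturase, was higher, at 41.8 ± 4.14 CPM in male WT (SD, n = 5) and 18.4 ± 5.86 CPM in female WT (SD, n = 4), and so was Lpcat3, a phospholipid acyltransferase, by 0.38. With reads per UMI as a covariate, Scd2 stood at 0.60 (adjusted p = 0.376, edgeR) and Lpcat3 at 0.20 (adjusted p = 0.587, edgeR). The Lpcat3 call was also lost without female WT replicate 30 or male WT replicate 10 or 14, at adjusted p-values of 0.0523 to 0.0681 by edgeR. On read counts Lpcat3 stood at 0.16 (adjusted p = 0.520, edgeR). In KO, Scd2 (1.14) and Fads2 (1.87) were higher in males and none was lower (the Fads2 call was lost without female KO replicate 7 or 16 or male KO replicate 6 or 9, at adjusted p-values of 0.0610 to 0.115 by edgeR), against 2.83% of all genes called higher and 4.27% lower. Without male KO replicates 6, 9 and 17, Scd2 stood at 0.74 (adjusted p = 0.102, edgeR) and Fads2 at 0.77 (adjusted p = 0.461, edgeR). The Fads2 call was also lost on read counts (1.89, adjusted p = 0.147, edgeR) and with the KO groups fitted alone (1.85, adjusted p = 0.115, edgeR). Fads2 passed the filter largely through its male KO values, so this call is not separate from them. With all libraries, 3 of 5 tested astrocyte, 2 of 5 neuron and 3 of 6 oligodendrocyte markers were called higher in male KO than in female KO and 0 lower; their part was not tested beyond these values. No synthesis gene was called between the sexes in either genotype by edgeR; at an unadjusted p under 0.05, 4 of 14 differed in WT and 0 in KO, beside 31.3% of all genes in WT and 24.2% in KO.

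**Figure D4:**
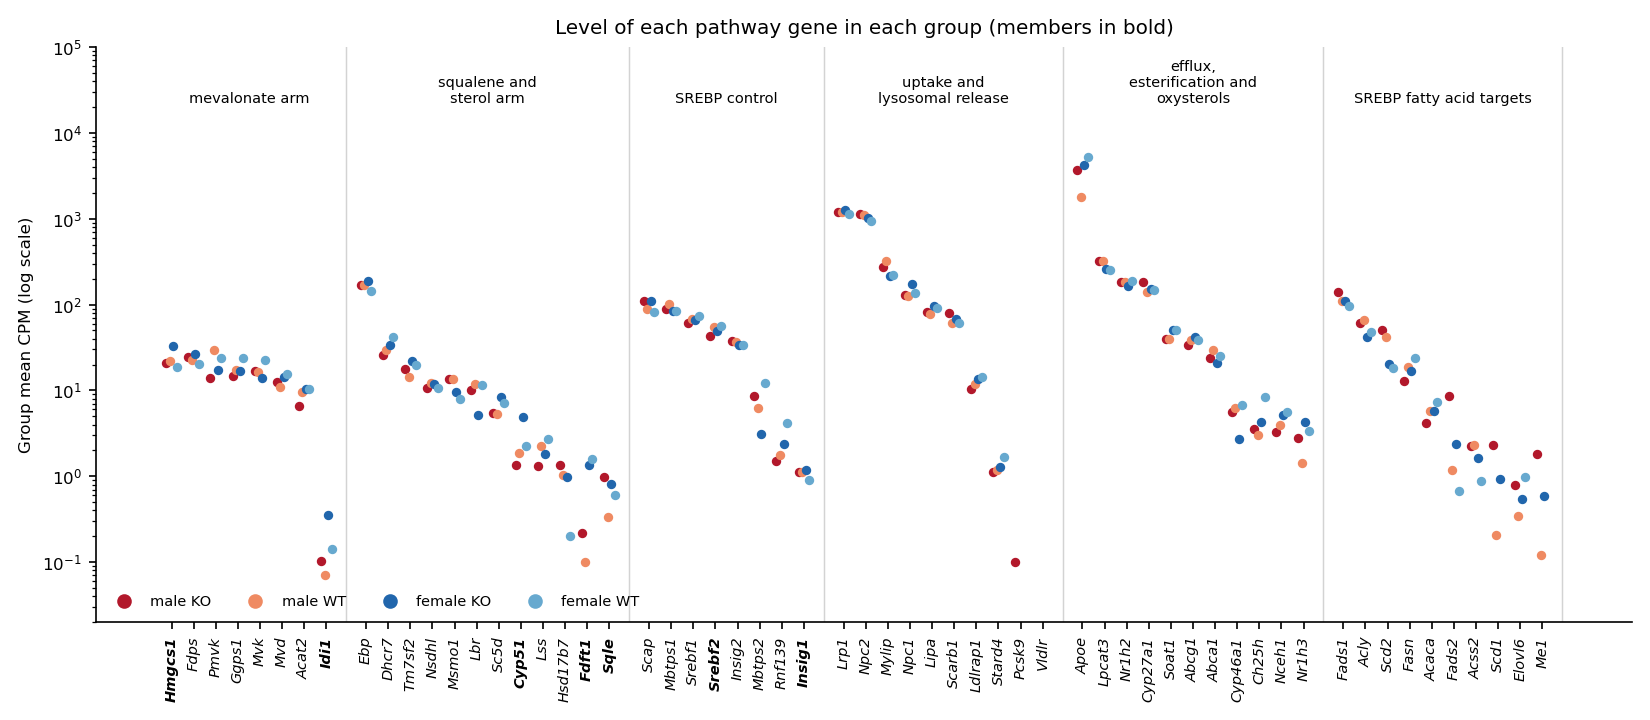
Mean CPM (vertical axis, log scale) in each group of the 59 pathway genes, which stand along the horizontal axis grouped by list, with the 7 genes in bold; groups at 0 are not drawn. The lowest group means are 1788 CPM for Apoe and 1137 CPM for Lrp1, and the highest for Idi1 is 0.352 CPM.

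Across the 18 libraries, centred on their group means, the 7 genes did not follow one another closely. Pearson's r between pairs ran from -0.52 to 0.44, the highest between Hmgcs1 and Srebf2. With the 13 other tested synthesis genes, Hmgcs1 had an r above 0 in 7 and below 0 in 6, from -0.50 with Lbr to 0.80 with Acat2, with Sc5d at 0.62, Fdps at 0.18 and Msmo1 at -0.41. The 10 genes outside the 7 whose centred log2 CPM was most like the mean of the 7 were Icam1 (r = 0.81), Usp10, AU020206, Ssbp1, Pik3c3, Gm14027, Clip1, Rab6b, Utp20 and Nab2 (r = 0.69). The points share library and depth, and 5 of the 7 genes contribute only a few UMIs per library, so these values describe 18 libraries and carry no test.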

How the data were processed

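Purified mouse microglia were profiled in 18 bulk MARS-seq libraries. The authors deposited 2 tables of raw counts per gene, reads before and after UMI correction; the UMI-corrected counts were used, and read counts served as an alternative. Cutadapt, STAR, HTSeq and the mm10 build are named, per the submitters' processing notes, without a strand setting. In both tables, 16 library columns match no sample used here and were left out. Totals ran from 435838 to 9149144 UMIs, and counting intervals and floors cover counting error only. Levels are CPM scaled by TMM.

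edgeR 4.0.16 in R 4.3.3 fitted 1 mean per group over all 18 libraries (filterByExpr by group, quasi-likelihood test, Benjamini-Hochberg over 10948 genes, calls at adjusted p under 0.05, whatever the fold); an SE is the log2 fold change divided by the root of F. The fit was tested on simulated data with the same spread for all genes. Of 1.5-fold changes it recovered 24% in males and 12% in females, and of 2-fold changes 84% in males and 60% in females. In each sex 8 unchanged genes were called. Modest changes could thus be missed. Sparse genes got exact Poisson intervals, conditional intervals of rate ratios at 95% and exact permutation tests (scipy 1.17.1), all added after the data were seen. DESeq2 1.42.0, RLE scaling, other filters, read counts, a reads-per-UMI covariate and left-out libraries were alternatives.

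Genes named are the 7; in each pathway list, genes called, up to 6 per list and comparison, and Apoe; the 10 most alike; and Chd8. Of the pathway genes, 4 are not reported here. Others were named after their values were seen. The 7 genes, the lists and the alternatives were chosen with earlier results of these data known. Coordinates are those of the mm10 annotation (GENCODE), and sequences are RefSeq's, GRCm38.p6.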

Additional observations from a re-analysis of the deposited data

Results flagged for a closer look

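In 7 of 68 combinations of gene and group, 1 library stood apart from the others by Dixon's ratio (its gap to the nearest library over the range of the group). In 6 of these the gene is sparse and the library holds from 1 to 6 UMIs: Sqle in female WT replicate 39 (ratio 1.0), Idi1 in female WT replicate 31 (ratio 1.0) and in male WT replicate 37 (ratio 1.0), Insig1 in male WT replicate 10 (ratio 0.754), and Fdft1 in male KO replicate 9 (ratio 0.898) and in male WT replicate 10 (ratio 1.0). Scd2 was lowest in female KO replicate 33, at 10.3 CPM on 4 UMIs (ratio 0.868).

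Apoe was flagged because its KO effect differed between the sexes, by -1.37 on the log2 scale, female minus male (adjusted p = 0.0147, edgeR). It was 1.06 in males, where every KO library was above every WT library, and -0.31 in females, where the groups overlapped. The test of the difference held in 24 of 26 alternative fits. The call, though not the size, was lost without female WT replicate 30 (-1.30, adjusted p = 0.0560) and without male KO replicates 6, 9 and 17 (-1.32, adjusted p = 0.166).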

How the results depend on the processing

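Hmgcs1 was called in none of its alternative fits, and Srebf2 in 3: KO against WT in males when fitted alone, and the average over sexes in the 2 settings named in the report. No paired analysis was possible because each library carries its own replicate number. Counts that moved by over 1.5 times follow, as genes called over all genes and, where named, over pathway genes; no cause was tested. DESeq2 gave 83 genes and 2 pathway genes for the difference between the sexes, against 26 and 1. Without the filter there were 532 genes in KO females against 293, 8 pathway genes in the average, 238 genes and 2 pathway genes in the difference, 1 of the 7 (Fdft1) and 7 pathway genes between sexes in WT, and 1354 genes in KO. The filter of 10 CPM in 4 libraries gave 17 genes in the difference and 1 pathway gene between sexes in KO. Read counts gave 222 genes in KO males against 683, 136 in KO females, 480 in the average, 10 in the difference, 1188 between sexes in WT, and 312 and 1 pathway gene in KO. The reads-per-UMI covariate gave 100 genes and 0 pathway genes in KO females, 622 in the average, 271 and 2 pathway genes between sexes in WT, and 326 in KO. Groups fitted alone gave 1145 genes, 1 of the 7 and 8 pathway genes in males; 0 genes and 0 pathway genes in females (828 at an unadjusted p under 0.05; DESeq2 on all libraries 352 genes); and 235 and 1 pathway gene between sexes in KO. Without the 2 shallowest libraries there were 7 pathway genes in males, 462 genes and 0 pathway genes in females, and 1 of the 7 and 8 pathway genes in the average. Without male KO replicates 6, 9 and 17 there were 196 genes and 1 pathway gene in males, 0 pathway genes in females, 1 gene and 0 pathway genes in the difference, and 104 and 0 between sexes in KO.

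Leaving out single libraries moved the genes called from 484 to 945 in males, 71 to 680 in females, 776 to 1584 in the average, 2 to 84 in the difference, 1092 to 2430 between sexes in WT and 207 to 1782 in KO; pathway genes from 2 to 7 in males, 0 to 1 in females, 3 to 9 in the average, 0 to 1 in the difference, 3 to 6 between sexes in WT and 1 to 4 in KO; and the 7 from 0 to 1 in the average. Values near 0 changed sign. Srebf2 between sexes in WT became 0.10 without the filter, 0.16 with the covariate, 0.059 without the shallow libraries and 0.018 without the 3 male KO libraries, and in KO 0.022 without the shallow libraries; Hmgcs1 between sexes in WT became -0.13 on read counts. With single libraries left out, the ranges that crossed 0 were -0.19 to 0.0030 for Hmgcs1 in KO males, -0.067 to 0.64 for Hmgcs1 between sexes in WT, and for Srebf2 -0.035 to 0.24 in the difference, -0.085 to 0.052 between sexes in WT and -0.23 to 0.029 in KO. The exact test of Fdft1 between sexes passed 0.05 in 2 of its 10 settings in KO and 1 of 10 in WT, with CPM differences of -1.49 to -0.729 in KO and -2.03 to -0.996 in WT when single libraries were left out, and of -0.179 in KO and -0.528 in WT on read counts. The CPM difference of Cyp51 on read counts was 2.99 in KO females against 2.63 on UMIs, 0.731 between sexes in WT against -0.367 on UMIs, and -2.44 between sexes in KO against -3.5 on UMIs.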
